A study of Mus musculus with 40 samples.

Results

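Translation initiation factor genes are the genes whose symbol in the deposited tables starts with Eif followed by a digit. They were 53 of the 11323 genes listed in at least 1 of 8 tables of RNA abundance in mouse oocytes and zygotes. The set takes in the cap-binding, scaffold and helicase genes of the eIF4 family, the subunits of eIF3, eIF2 and eIF2B, the eIF4E-binding proteins, the kinases of the eIF2 alpha subunit, and the factors of start-site selection and subunit joining.

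Translation initiation joins a messenger RNA to the small ribosomal subunit. The cap at the 5′ end is held by eIF4E, which the scaffold eIF4G connects to the helicase eIF4A and to eIF3, while eIF2 brings the initiator transfer RNA and is recharged by eIF2B. Phosphorylation of the eIF2 alpha subunit slows initiation, and eIF4E-binding proteins compete with eIF4G for eIF4E. A maturing oocyte does not transcribe, so it makes its proteins from stored messenger RNA.

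Each of 5 kinds of cell was sampled in 2 fractions with 4 libraries each. IMZ are pronuclear zygotes matured and fertilized in vitro, and IVZ are pronuclear zygotes matured and fertilized in vivo. IVM are oocytes matured in vitro after removal of the cumulus cells, COC are in vitro matured oocytes left inside the cumulus-oocyte complex, and IVO are oocytes matured in vivo. The libraries were made from a polysome fraction, which holds messenger RNA carrying ribosomes, and from unfractionated total RNA, 40 libraries in all. The sources used here do not give mouse strain, age or the number of cells per library, nor whether IMZ came from denuded or from enclosed oocytes. The labels do not tie replicates to separate animals, so the spread behind the p-values is that of these libraries and may be technical. The study asked how maturation in vitro changes which stored transcripts are translated.

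Values are RPKM, reads per kilobase of gene scaled to the size of the library, as deposited. Differences are log2 fold changes of RPKM + 1, each with a standard error (SE), a scale that understates changes of genes near or under 1 RPKM. A gene was called where limma's adjusted p was under 0.05 after Benjamini-Hochberg adjustment over all genes of the comparison. Depth, estimated from what 1 read is worth in RPKM, was 3.16 to 38.9 M reads per polysomal library (median 15.6) and 46.6 to 63.2 M per total RNA library (median 53.7). Spearman correlations between libraries of a group were 0.663 to 0.949 in polysomal RNA and 0.983 to 0.996 in total RNA. The authors excluded 2 polysomal libraries, IVM replicate 1 and IVZ replicate 1, from their own analysis, and both are kept here. All 12 oocyte markers examined were listed in every group, and their summed level in total RNA was 3458 to 4151 RPKM in zygotes and 4953 to 6178 RPKM in oocytes. Of 20 cumulus and granulosa markers, 2 to 4 were listed in total RNA (Cyp19a1 and Nr5a2, with Grem1 or Kitl in oocyte groups), at a summed 12.3 to 16.4 RPKM, and 1 in polysomal RNA (Nr5a2), while the rest were not listed. Listing needs 0.2 RPKM in every library of both groups of a table, so a marker present in COC alone would be missing here. Not being listed therefore does not show absence from a group. In bulk samples fewer cells of a type and less RNA per cell cannot be told apart.

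A table lists a gene only if it reached 0.2 RPKM in every library of the table. In total RNA 52 members were listed in IMZ and IVZ and 53 in IVM, COC and IVO. In polysomal RNA 45 were listed in IMZ and IVZ, 36 in IVM, and 46 in COC and IVO. Eif4ebp1, Eif3j1, Eif2a, Eif2ak2, Eif1ad15 and Eif5a2 were listed in no polysomal table. Of these, Eif3j1 and Eif2a had group means of 2.52 to 5.598 and 1.93 to 3.18 RPKM in total RNA.

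**Figure D1:**
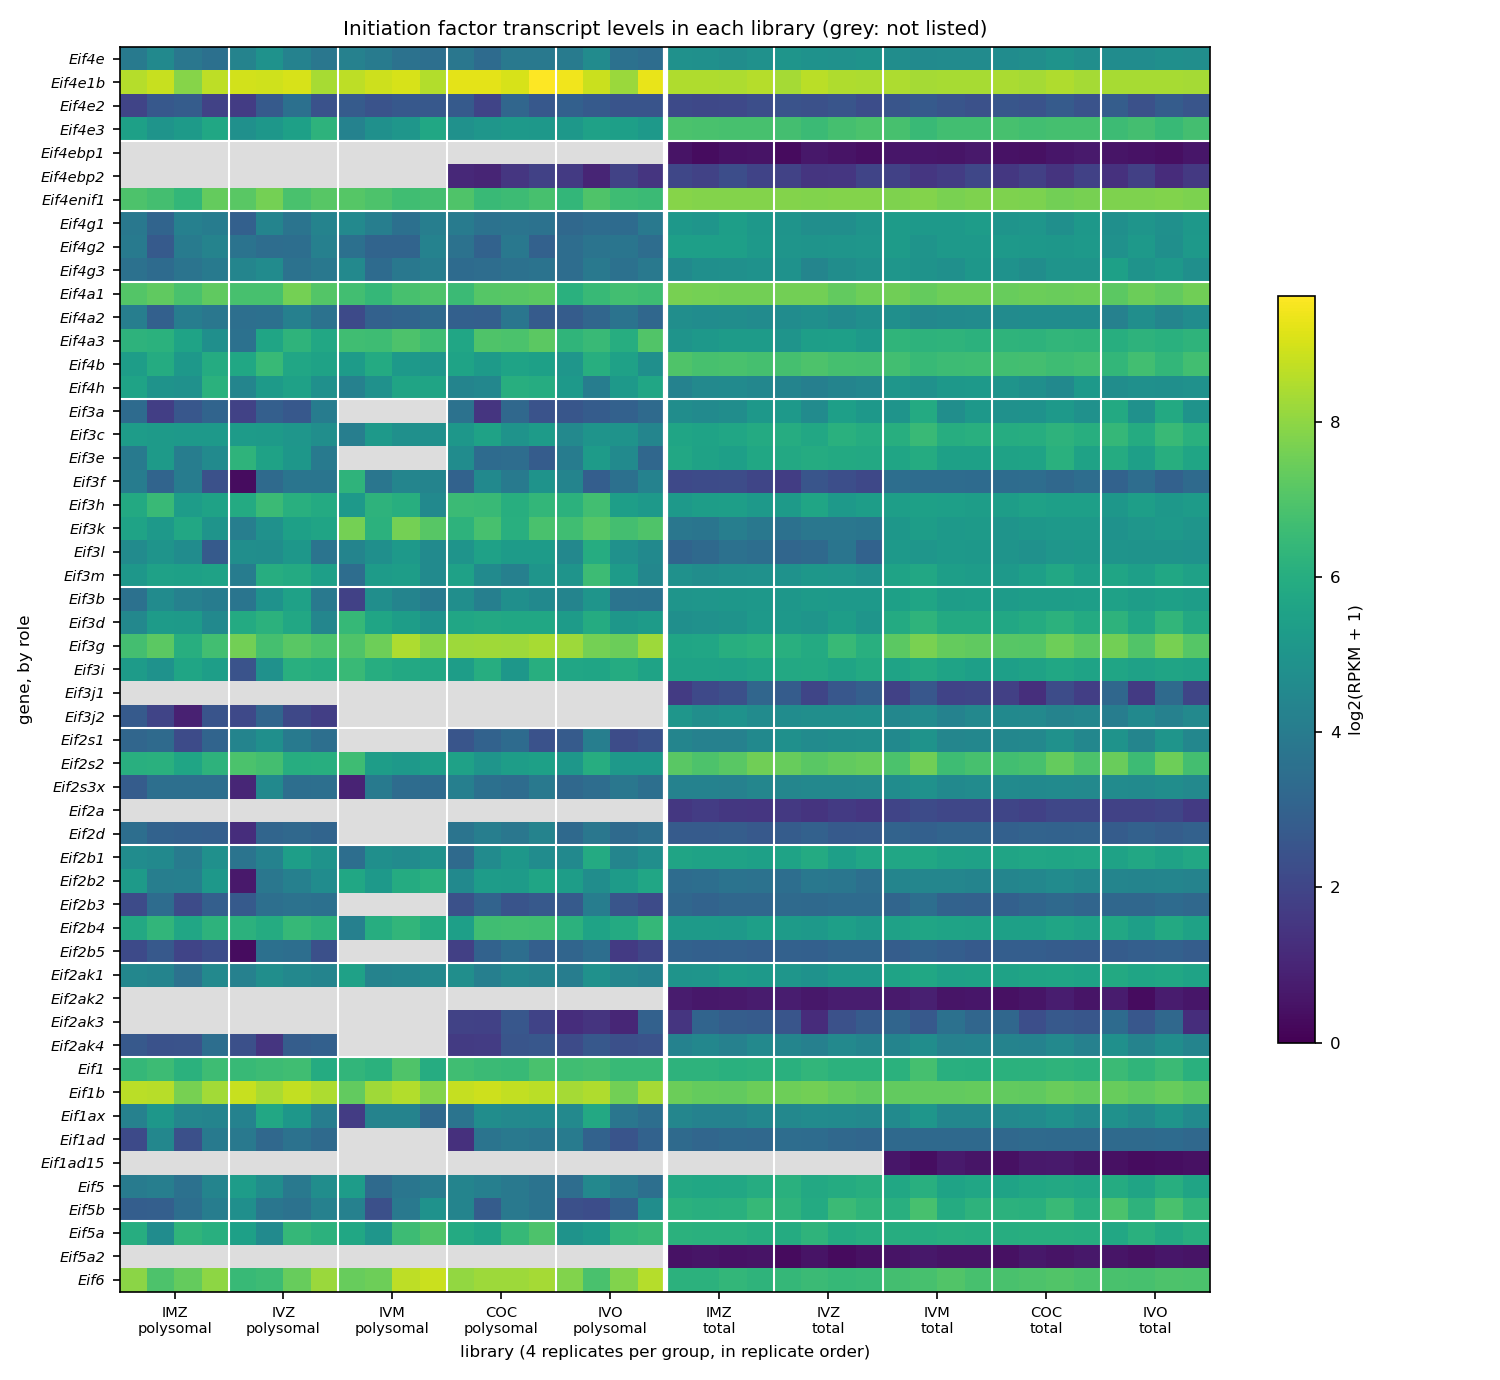
Level of each of the 53 genes, by role, in each of the 40 libraries, as log2(RPKM + 1), with polysomal RNA left of total RNA and groups in the order IMZ, IVZ, IVM, COC and IVO. Grey marks a gene not listed. Eif4e1b is the brightest row in both fractions, and Eif3f, Eif3k and Eif3l are darker in total RNA of zygotes than of oocytes.

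The most abundant initiation factor transcript in every group of both fractions was Eif4e1b (ENSMUSG00000074895), the oocyte form of the cap-binding protein. In total RNA it had 352, 352, 343 and 372 RPKM in IMZ, 322, 396, 358 and 343 RPKM in IVZ, 343, 321, 324 and 326 RPKM in IVM, 334, 317, 352 and 322 RPKM in COC, and 324, 330.0, 331 and 321 RPKM in IVO. IMZ lay above IVO, and every other pair of groups overlapped. The general cap-binding gene Eif4e (ENSMUSG00000028156) had 28.4, 27.7, 25.4 and 27.8 RPKM in IMZ, 31.7, 29.1, 28.4 and 29.4 RPKM in IVZ, 25.2, 23.5, 23.9 and 23.9 RPKM in IVM, 24.8, 25.9, 30.1 and 25.6 RPKM in COC, and 24.6, 24.3, 26.5 and 25.8 RPKM in IVO. IVZ lay above IMZ, IVM and IVO, IMZ lay above IVM, and the other pairs overlapped, but no comparison of Eif4e passed in total RNA. Per length, Eif4e1b was 16.8 to 65.04 times as abundant as Eif4e in the 20 polysomal libraries, with a median ratio of 29.7, and 10.2 to 13.7 times in the 20 total RNA libraries, with a median of 12.9. The ranges of the ratio did not overlap between the fractions. Against total RNA, Eif4e1b itself was called higher in polysomal RNA in COC alone, and Eif4e was called lower in 4 kinds of cell. Eif4e1b has 2255 exonic bases and Eif4e 6008, and longer genes tended to be lower in polysomal RNA, as given below. The part of length in the ratio was not tested.

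In polysomal RNA Eif4e1b spread more widely. It had 375, 444, 234 and 399.8 RPKM in IMZ, 493, 488, 519 and 324 RPKM in IVZ, 398, 466, 528 and 363 RPKM in IVM, 591, 592, 529 and 784 RPKM in COC, and 683, 455, 287 and 635 RPKM in IVO. The lowest COC library lay above the highest libraries of IMZ, IVZ and IVM, and within the range of IVO. Eif4e had 14.1, 22.4, 13.2 and 10.6 RPKM in IMZ, 18.6, 29.1, 18.4 and 13.04 RPKM in IVZ, 17.9, 14.99, 11.2 and 10.4 RPKM in IVM, 13.2, 9.27, 13.97 and 13.8 RPKM in COC, and 14.95, 23.98, 11.1 and 9.77 RPKM in IVO in polysomal RNA, where all 5 groups overlapped. Eif4e3, a further cap-binding relative, averaged 99.4 to 114 RPKM across the groups of total RNA, and Eif4e2, whose protein 4EHP binds the cap without starting translation, averaged 3.49 to 5.32 RPKM.

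Among the genes of eIF4E-binding proteins, Eif4enif1 was by far the most abundant. Its protein, 4E-T, binds eIF4E and keeps it from eIF4G. In total RNA Eif4enif1 had 230.2, 226, 228 and 229.5 RPKM in IMZ, 229, 219, 227 and 227 RPKM in IVZ, 215, 225, 204 and 213 RPKM in IVM, 213, 211, 191 and 202 RPKM in COC, and 215, 216, 219 and 209 RPKM in IVO. In polysomal RNA it had 121, 106, 82.6 and 161 RPKM in IMZ, 143, 196, 113 and 138 RPKM in IVZ, 135, 121, 101 and 107 RPKM in IVM, 124, 90.03, 96.8 and 112 RPKM in COC, and 81.4, 124, 98.1 and 91.9 RPKM in IVO. In every group the highest polysomal library lay under the lowest total RNA library. Within a kind of cell, 45.6% to 63.3% of all genes did not overlap between the fractions, in either direction. The genes of the TOR-regulated binding proteins were low in total RNA, where Eif4ebp2 averaged 1.86 to 3.12 RPKM and Eif4ebp1 0.367 to 0.518 RPKM across the groups, the last on 29 to 79 reads per library. In polysomal RNA Eif4ebp2 was listed at 1.13, 0.986, 1.87 and 2.64 RPKM in COC and at 2.13, 1.01, 2.75 and 1.803 RPKM in IVO.

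The 3 scaffold genes stood close together in total RNA. Eif4g1, the main scaffold of cap-dependent initiation, had 34.2, 31.1, 40.7 and 33.7 RPKM in IMZ, 30.6, 25.96, 26.1 and 30.8 RPKM in IVZ, 37.9, 35.1, 35.1 and 39.1 RPKM in IVM, 30.5, 32.3, 26.8 and 34.2 RPKM in COC, and 26.3, 31.3, 27.2 and 33.8 RPKM in IVO. Across the groups Eif4g2 averaged 31.4 to 40.3 RPKM and Eif4g3 25.7 to 33.4 RPKM. Of the helicase genes, Eif4a1 averaged 165 to 192 RPKM and Eif4a2 22.1 to 25.3 RPKM, while the helicase cofactor genes Eif4b and Eif4h averaged 92.1 to 114 and 19.2 to 32.4 RPKM. Eif4a1 and Eif4a2 are close copies, and how the counting split reads between such genes is not stated, so their levels are uncertain, as are those of Eif1 with Eif1b and Eif3j1 with Eif3j2.

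Genes of 1 complex differed widely in level. The eIF2 beta subunit gene Eif2s2 averaged 125 to 157 RPKM in total RNA, while the alpha and gamma subunit genes Eif2s1 and Eif2s3x averaged 19.3 to 25.6 and 18.8 to 24.8 RPKM. Within eIF2B, Eif2b1 and Eif2b4 averaged 45.8 to 49.6 and 38.1 to 49.3 RPKM, Eif2b2 10.6 to 21.4 RPKM, and Eif2b3 and Eif2b5 7.797 to 9.07 and 6.14 to 7.18 RPKM. Among the eIF2 alpha kinases, Eif2ak1 (heme-regulated) averaged 32.2 to 51.3 RPKM and Eif2ak4 (GCN2, activated by uncharged transfer RNA) 19.2 to 22.9 RPKM. The genes of the endoplasmic reticulum kinase PERK, Eif2ak3, and of the double-stranded RNA kinase PKR, Eif2ak2, averaged 4.02 to 8.06 and 0.4903 to 0.667 RPKM. The 3 kinases apart from Eif2ak1 passed in no comparison of stage or condition.

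Of the start-site genes, Eif1 averaged 71.8 to 82.7 RPKM and Eif1b 157 to 171 RPKM in total RNA, Eif1ax 19.4 to 26.5 RPKM and Eif1ad 8.64 to 9.01 RPKM. Eif5, which triggers GTP hydrolysis by eIF2, averaged 50.8 to 61.5 RPKM and Eif5b, the GTPase gene of subunit joining, 72.1 to 96.4 RPKM. Eif5a, whose protein helps ribosomes through difficult peptide bonds, averaged 60.1 to 66.6 RPKM in total RNA and 55.5 to 78.3 RPKM in polysomal RNA. In polysomal RNA it had 63.2, 24.9, 76.5 and 65.8 RPKM in IMZ, 42.8, 23.1, 84.7 and 71.4 RPKM in IVZ, 51.7, 32.4, 96.5 and 123 RPKM in IVM, 57.3, 47.8, 86.5 and 122 RPKM in COC, and 29.4, 36.3, 81.5 and 89.4 RPKM in IVO. In each group replicates 3 and 4 lay above replicates 1 and 2, and replicate 1 was the shallowest polysomal library of all 5 groups. Whether equal numbers mark a shared batch is not given in the sources used here. Eif5a2 averaged 0.299 to 0.468 RPKM and Eif1ad15, listed in oocytes, 0.305 to 0.5099 RPKM, both on few reads, with medians of 108 and 40 per library.

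Libraries of the oocyte groups did not sit evenly in total RNA. IVM replicate 2 held the highest value of its group for 31 of 52 members, COC replicate 3 for 28 and IVO replicate 3 for 26. In IVO, replicates 1 and 3 stood apart from replicates 2 and 4 for several members. Eif3a, the scaffold subunit gene of eIF3, had 55.9, 28.1, 56.7 and 29.9 RPKM in IVO replicates 1 to 4, and Eif5b had 118, 73.7, 115 and 79.4 RPKM. What sets these libraries apart was not tested. Over all comparisons 31 of 178 calls of a member were lost in at least 1 fit that left out 1 library, and those of the genes described are given beside them.

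Of 14 eIF3 genes, 6 were lower in zygotes than in oocytes in total RNA in both stage comparisons, where 14.1% of all genes were called lower in vivo and 30.2% in vitro. Eif3l, Eif3k, Eif3g, Eif3f, Eif3d and Eif3m were lower both in IVZ than in IVO (in vivo) and in IMZ than in the mean of IVM and COC (in vitro). Eif3a, Eif3e, Eif3h and Eif3i passed in neither comparison. Eif4a3, Eif4h, Eif2b2, Eif2b4, Eif2ak1 and Eif6, whose protein keeps ribosomal subunits apart, also fell in both, and the in vivo call of Eif2b4 was kept in 3 of 8 fits that left out 1 library (limma adjusted p up to 0.118, lost without IVO replicate 1 or 3 or IVZ replicate 1, 2 or 4). The stage comparisons join libraries of separate tables. The oocyte libraries stand in 2 tables of their fraction each and have identical values in both. Zygote libraries stand in a single table each, shared with no oocyte library, so the same check could not be made for them. A difference of stage therefore cannot be told apart from a difference between tables. The summed level of the 12 oocyte markers was lower in zygotes too, in the ranges given above, and its part in these differences was not tested.

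The starts of the eIF3 genes are shown because some genes of 1 complex fell here and others were not called. A pyrimidine run at the very start of a transcript is known to make its translation depend on TOR signalling. Any link between such runs and these falls in RNA abundance was not tested. Each line gives the 5 bases before and the 25 bases from the gene's start in RefSeq (GRCm38.p6), 5′ to 3′ on the gene's strand, with the longest run of C and T in capitals. Of 14 eIF3 genes 10 matched an entry, and Eif3e, Eif3h, Eif3i and Eif3j2 are named only. The first 6 genes fell in both comparisons, Eif3b and Eif3c in vitro, and Eif3a in neither.
Eif3l, chr15:79075218-79075247, plus strand: cttcttccgCTCTCTCCCacgggcttctgg
Eif3k, chr7:28981864-28981893, minus strand: gcgctggtgctgaaagcgCCTTTCCCTTTg
Eif3f, chr7:108934410-108934439, plus strand: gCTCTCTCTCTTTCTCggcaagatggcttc
Eif3g, chr9:20898566-20898595, minus strand: ggctgggagctgcgtggagttaagaCTTCg
Eif3d, chr15:77970800-77970829, minus strand: caTTTacgacagcgctggtcgccgtttacg
Eif3m, chr2:105017003-105017032, minus strand: ggcgtgtttctggatcggagcgTCTTCCgc
Eif3b, chr5:140419300-140419329, plus strand: gcggtgaCTTCTgggagtcggaagcagggc
Eif3c, chr7:126566342-126566371, minus strand: cagagggaCTCggcagcttagctggttcgt
Eif3a, chr19:60790669-60790698, minus strand: gcggcggcgCTgccgccgcgagggaatcac

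The longest pyrimidine run was 15 bases in Eif3f, 11 in Eif3k and 9 in Eif3l, and 6 or fewer in the 6 other genes shown and in Eif3j1. Among all 32851 starts of the table, 6.69% held a run of 9 or more in this window, and the median longest run was 4 bases. Eif3g, Eif3d and Eif3m fell without a long run. The run of Eif3f spans the annotated start, whereas the longest runs of Eif3k and Eif3l begin after it. In Eif3l a shorter run of C and T, at the left edge of the window, also spans the annotated start. These runs describe annotated starts, and the transcript ends were not measured.

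Eif3l (ENSMUSG00000033047), an outer subunit of the eIF3 octamer, had the largest fall among the members in both comparisons. In total RNA it had 7.55, 8.70, 11.05 and 10.002 RPKM in IMZ and 7.96, 8.87, 12.2 and 7.04 RPKM in IVZ, against 35.98, 31.9, 34.8 and 33.98 RPKM in IVM, 30.1, 28.02, 31.9 and 32.9 RPKM in COC, and 30.2, 29.9, 29.7 and 28.98 RPKM in IVO. Every zygote library lay under every oocyte library. The log2 fold change was -1.64 (SE 0.13, adjusted p = 2.29e-05) in vivo and -1.70 (SE 0.082, adjusted p = 3.41e-09) in vitro by limma.

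Eif3k (ENSMUSG00000053565), whose protein pairs with that of Eif3l at the edge of the complex, had 13.2, 12.5, 16.2 and 13.3 RPKM in IMZ and 11.1, 13.1, 13.1 and 12.3 RPKM in IVZ, against 33.3, 39.7, 35.9 and 36.7 RPKM in IVM, 30.2, 33.2, 35.2 and 34.5 RPKM in COC, and 29.2, 32.2, 34.6 and 31.7 RPKM in IVO. No zygote library reached an oocyte library. By limma it had a log2 fold change of -1.30 (SE 0.082, adjusted p = 4.91e-06) in vivo and -1.28 (SE 0.071, adjusted p = 1.39e-08) in vitro.

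Eif3g (ENSMUSG00000070319) encodes an RNA-binding subunit outside the octamer. It had 49.5, 50.6, 64.8 and 69.04 RPKM in IMZ and 66.1, 58.01, 88.1 and 66.9 RPKM in IVZ, against 144, 204, 163 and 154 RPKM in IVM, 138, 135, 179.7 and 145 RPKM in COC, and 191, 127, 202 and 133 RPKM in IVO. IVO replicates 1 and 3 were again the higher pair, and the lowest oocyte library, IVO replicate 2, still lay above the highest zygote library, IVZ replicate 3. Limma gave log2 fold changes of -1.20 (SE 0.18, adjusted p = 0.000911) in vivo and -1.42 (SE 0.12, adjusted p = 4.69e-07) in vitro.

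Eif3f, a subunit gene of the octamer, had 3.33, 3.65, 3.66 and 3.08 RPKM in IMZ and 2.39, 4.87, 4.02 and 3.22 RPKM in IVZ, against 10.1, 9.54, 9.49 and 9.35 RPKM in IVM, 9.52, 9.83, 8.46 and 9.89 RPKM in COC, and 7.22, 9.90, 7.02 and 9.04 RPKM in IVO. The zygote and oocyte libraries did not overlap, and the log2 fold change was -1.02 (SE 0.17, adjusted p = 0.00204) in vivo and -1.25 (SE 0.059, adjusted p = 3.36e-09) in vitro by limma. Eif3d, whose protein can itself bind the cap of some transcripts, averaged 30.1 ± 3.81 RPKM in IMZ and 34.1 ± 4.15 RPKM in IVZ, against 61.5 ± 8.68 RPKM in IVM, 60.8 ± 8.02 RPKM in COC and 64.7 ± 13.7 RPKM in IVO (SD, n = 4 each). Of the exonic bases of Eif3d, 43.3% are shared with an annotated antisense gene, and whether the counting used strand is not stated, so its level is uncertain. Eif3m, an octamer subunit gene, averaged 27.4 ± 1.36 RPKM in IMZ and 30.6 ± 2.15 RPKM in IVZ, against 45.2 ± 6.53 RPKM in IVM, 43.1 ± 7.52 RPKM in COC and 47.2 ± 4.28 RPKM in IVO (SD, n = 4 each), and its log2 fold change in vivo was -0.61 (SE 0.086, adjusted p = 0.000742) by limma.

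**Figure D2:**
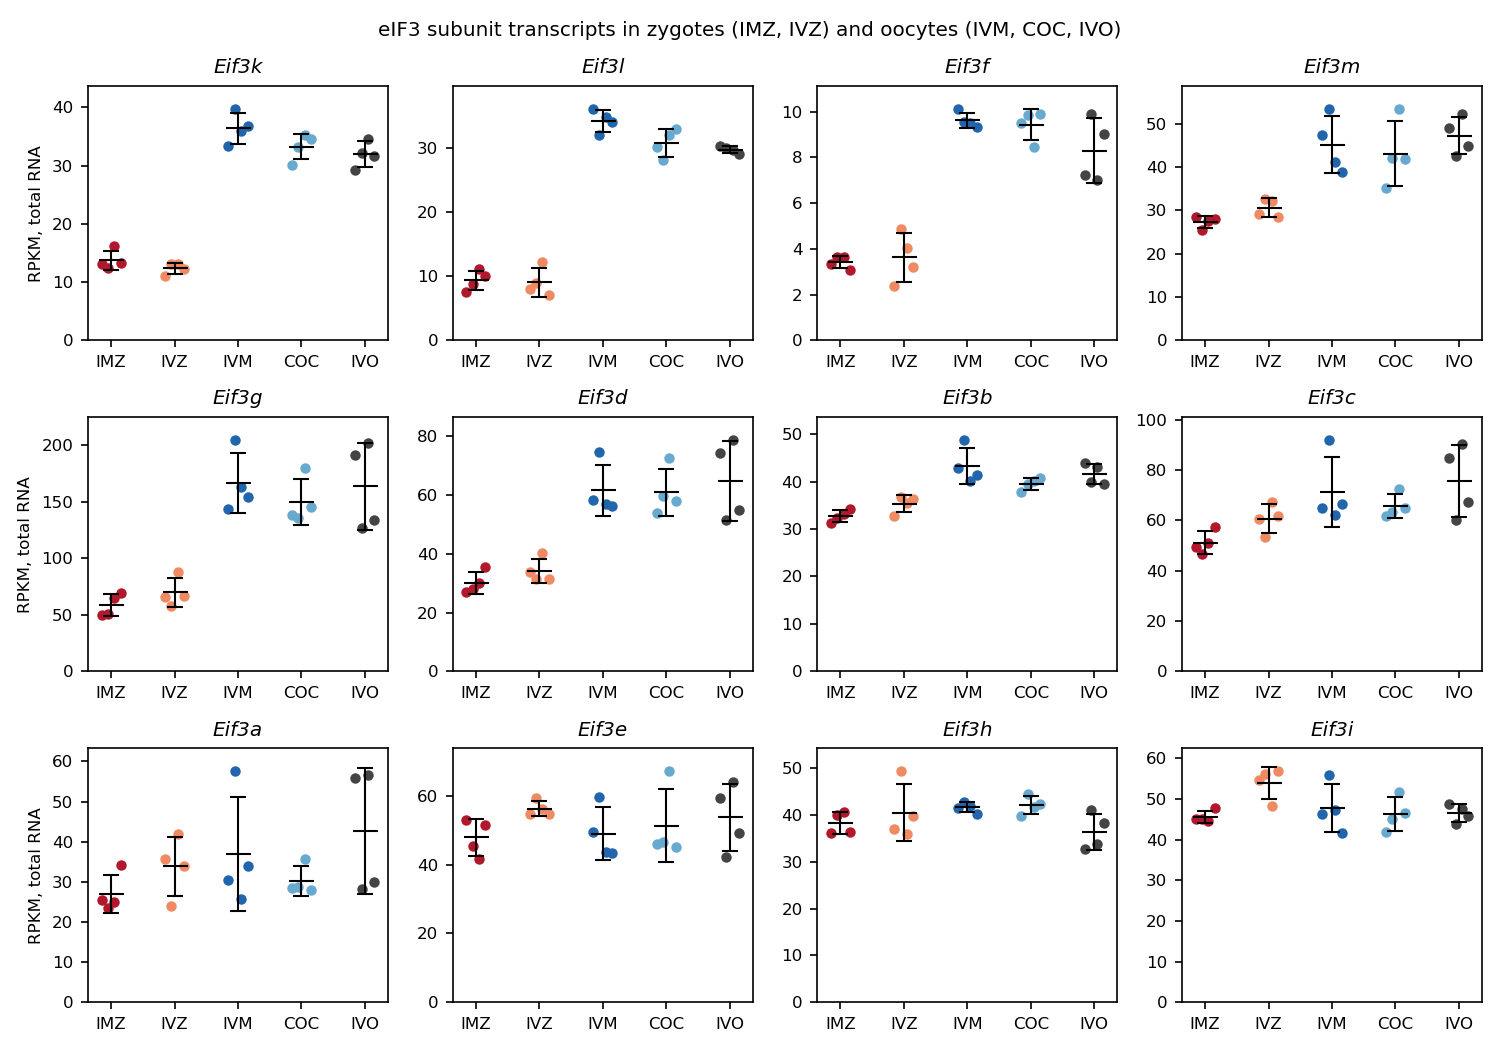
RPKM in total RNA of 12 eIF3 subunit genes in zygotes (IMZ, IVZ) and oocytes (IVM, COC, IVO), 1 point per library with the group mean and SD (n = 4). For Eif3k, Eif3l, Eif3f, Eif3m, Eif3g, Eif3d and Eif3b every zygote library lies under every oocyte library, whereas Eif3c, Eif3a, Eif3e, Eif3h and Eif3i overlap.

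Outside eIF3, Eif4a3 had the largest fall. Its protein is a helicase of the eIF4A family that sits in the exon junction complex rather than at the cap. It had 30.6, 33.6, 37.7 and 37.5 RPKM in IMZ and 30.1, 40.98, 42.1 and 35.4 RPKM in IVZ, against 77.5, 73.8, 75.0 and 70.7 RPKM in IVM, 74.9, 73.9, 79.3 and 77.1 RPKM in COC, and 64.6, 73.2, 68.7 and 76.2 RPKM in IVO. The highest zygote library, IVZ replicate 3, was under the lowest oocyte library, IVO replicate 1. Its log2 fold change was -0.92 (SE 0.11, adjusted p = 0.000258) in vivo and -1.09 (SE 0.059, adjusted p = 1.08e-08) in vitro by limma. Of its relatives in the cap complex, Eif4a2 passed in neither comparison and Eif4a1 was higher in IMZ than in IVM and COC (log2 fold change 0.14, SE 0.049, limma adjusted p = 0.0337).

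Eif2b2, the gene of the eIF2B beta subunit, averaged 10.6 ± 1.097 RPKM in IMZ and 11.7 ± 1.602 RPKM in IVZ, against 19.9 ± 0.674 RPKM in IVM, 21.4 ± 1.89 RPKM in COC and 19.3 ± 0.517 RPKM in IVO (SD, n = 4 each). Its log2 fold change was -0.69 (SE 0.095, adjusted p = 0.000652) in vivo and -0.90 (SE 0.067, adjusted p = 1.97e-07) in vitro by limma. Eif2b1, Eif2b3 and Eif2b5, further subunit genes of the same complex, passed in neither. Eif2ak1 averaged 33.7 ± 3.31 RPKM in IMZ and 32.2 ± 2.49 RPKM in IVZ, against 47.2 ± 3.24 RPKM in IVM, 47.3 ± 1.67 RPKM in COC and 51.3 ± 3.94 RPKM in IVO (SD, n = 4 each), with a log2 fold change in vivo of -0.66 (SE 0.084, adjusted p = 0.0004) by limma. Eif6 averaged 74.96 ± 4.12 RPKM in IMZ and 88.5 ± 4.14 RPKM in IVZ, against 115 ± 9.69 RPKM in IVM, 119.8 ± 4.87 RPKM in COC and 117 ± 4.77 RPKM in IVO (SD, n = 4 each), and its 8 zygote libraries lay under its 12 oocyte libraries.

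For the counts by role, 14.1% of all genes were called lower in vivo and 30.2% in vitro. In either direction the shares were 16.2% and 43.1%. Whether a role differed from all genes was not tested. Counted by role, the eIF3 octamer had 4 of 8 genes lower and 0 higher in vivo, and 5 lower and 0 higher in vitro. The eIF3 genes outside the octamer had 2 of 6 lower and 1 higher in vivo, and 3 lower and 1 higher in vitro. In eIF2B 2 of 5 genes were lower in vivo and 2 in vitro, and among eIF2 and its alternatives 0 of 5 were lower in vivo and 3 in vitro (Eif2s3x, Eif2a and Eif2d). Of the 4 cap-binding genes 0 were called in vivo and 1, Eif4e2, was lower in vitro. Of 6 tested genes of start-site selection and subunit joining 0 were called in vivo and 1, Eif1ax, was lower in vitro, a call lost without COC replicate 3 or IMZ replicate 1, 2 or 3 (limma adjusted p up to 0.0944).

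In all, 12 members were lower and 1 was higher among 52 tested in vivo, where 16.2% of all 10693 genes were called and 14.1% were called lower. In vitro 19 members were lower and 5 higher among 52, where 43.1% of all 10738 genes were called and 30.2% were called lower. The members' shares called were 25% in vivo and 46.2% in vitro, the second close to that of all genes. The members' median log2 fold change was -0.07 in vivo and -0.07 in vitro, against -0.02 and -0.05 over all genes. After median-of-ratios scaling of the libraries, 3 members were higher and 11 lower in vivo (17.5% of all genes called), and 13 higher and 18 lower in vitro (46.7%).

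The stage comparisons in vivo and in vitro share no library. All 13 members called in vivo were called in vitro in the same direction, against 1605 of 1728 genes (92.9%) over the whole table, and 46 of 52 members (88.5%) had the same sign in both, against 78.6% of all genes. Across the 52 genes the Pearson correlation of the log2 fold changes was 0.954, against 0.873 across 10660 genes, which are not independent replicates. Over the 8 zygote and 12 oocyte libraries of total RNA, 11 of 52 members (21.2%) had every zygote library under every oocyte library, against 11.9% of 10660 genes. One member, Eif4b, had every zygote library above every oocyte library, against 1.63% of all genes.

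**Figure D3:**
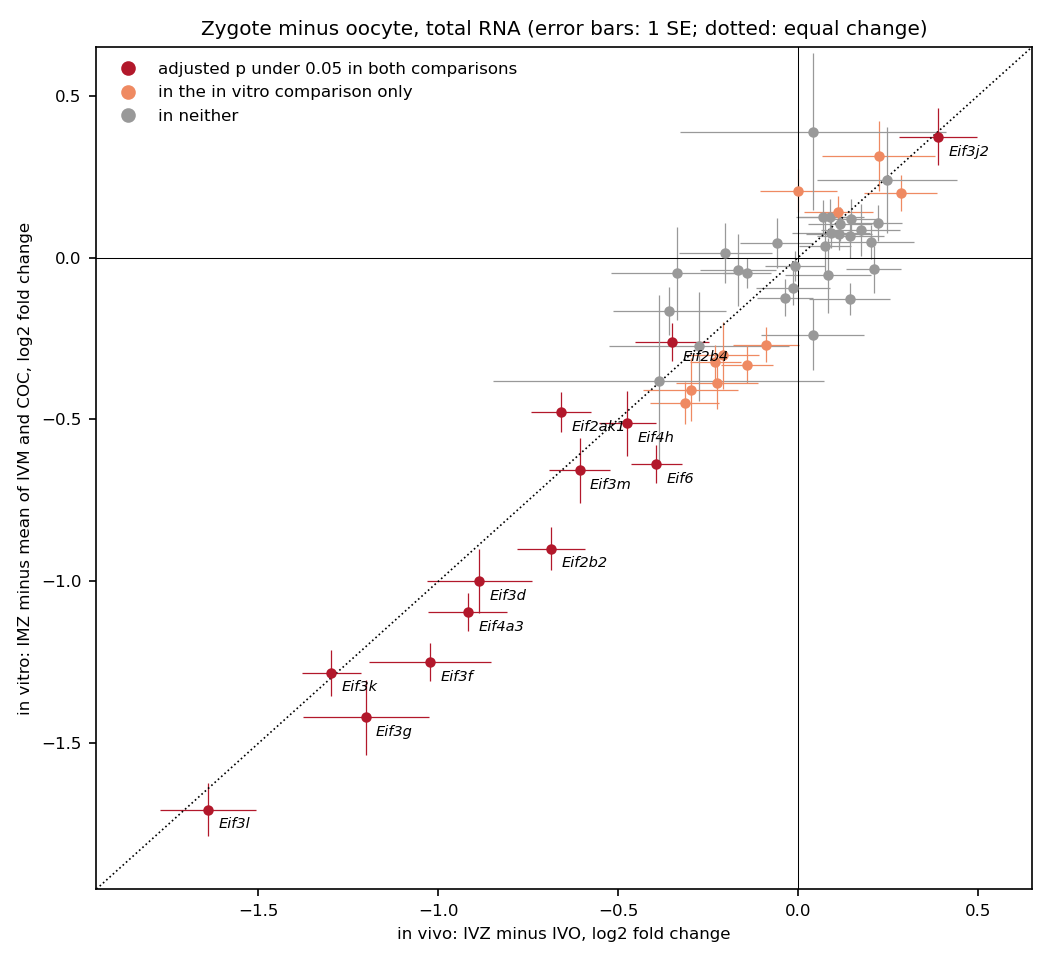
Log2 fold change of 52 initiation factor genes in total RNA from oocyte to zygote in vivo (IVZ minus IVO, horizontal axis) and in vitro (IMZ minus the mean of IVM and COC, vertical axis), with 1 SE. The 13 genes called in both comparisons are named, and Eif3l, Eif3g and Eif3k have the lowest values on both axes.

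Of 52 members, 1 was higher in zygotes in vivo and 5 in vitro on the deposited scale. Over all genes, 225 of 10693 were called higher in vivo and 1385 of 10738 in vitro. After median-of-ratios scaling 3 and 13 members were higher. In either direction 17.5% and 46.7% of all genes were then called. The share of all genes called higher after that scaling is not given here, so these counts of higher members cannot be set against it. Eif3j2, a gene of the loosely bound eIF3 subunit, had 32.4, 25.6, 28.9 and 23.9 RPKM in IMZ and 24.4, 25.9, 25.8 and 26.9 RPKM in IVZ, against 21.1, 23.99, 18.1 and 21.4 RPKM in IVM, 22.5, 22.3, 18.9 and 20.5 RPKM in COC, and 15.99, 22.6, 17.9 and 21.9 RPKM in IVO. Its log2 fold change was 0.39 (SE 0.11, adjusted p = 0.0344) in vivo and 0.37 (SE 0.087, adjusted p = 0.00366) in vitro by limma. The in vivo call was kept in 2 of 8 fits that left out 1 library, those without IVO replicate 2 or 4, and was lost without any of the others, with limma adjusted p up to 0.102.

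In vitro, Eif4b (log2 fold change 0.20, limma adjusted p = 0.0114), Eif4g2 (0.21, adjusted p = 0.0205), Eif4ebp2 (0.31, adjusted p = 0.0322) and Eif4a1 were also higher in IMZ than in IVM and COC. Without IMZ replicate 1 none of these 4 was called. Eif4b was called in 11 of 12 fits that left out 1 library, Eif4g2 in 9 (lost without IMZ replicate 1, 2 or 3), and Eif4ebp2 and Eif4a1 in 7 each. The highest limma adjusted p over those fits was 0.052 for Eif4b, 0.0703 for Eif4g2, 0.121 for Eif4ebp2 and 0.0942 for Eif4a1. Eif4ebp2 was lost without IVM replicate 3, COC replicate 1 or 3, or IMZ replicate 1 or 3, and Eif4a1 without COC replicate 1 or 4 or IMZ replicate 1, 2 or 3.

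In polysomal RNA the stage comparisons rest on less depth, and they called fewer genes. Of 44 members tested, 1 was lower in IVZ than in IVO, where 0.449% of 6010 genes were called. Of 36 members, 2 were lower in IMZ than in the mean of IVM and COC, where 3.65% of 4408 genes were called. Eif3k had 47.1, 35.4, 53.3 and 30.5 RPKM in IMZ and 16.2, 28.3, 42.8 and 48.3 RPKM in IVZ, against 195, 71.7, 194 and 139 RPKM in IVM, 72.9, 111, 66.7 and 114 RPKM in COC, and 101, 136, 105 and 124 RPKM in IVO. Every zygote library was again under every oocyte library. Its log2 fold change was -1.85 (SE 0.36, adjusted p = 0.0368) in vivo and -1.43 (SE 0.29, adjusted p = 0.00973) in vitro by limma. The in vivo call was lost without any 1 of the 4 IVO libraries and without IVZ replicate 2 or 3, with limma adjusted p up to 0.147, and the in vitro call held in all 12 such fits.

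Eif3g had 107, 144, 63.8 and 102 RPKM in IMZ and 189, 109.8, 142 and 118 RPKM in IVZ, against 124, 179, 346 and 240.3 RPKM in IVM, 298, 303, 296 and 329 RPKM in COC, and 295, 193, 175 and 292 RPKM in IVO, all in polysomal RNA. IMZ overlapped IVM, and IVZ overlapped IVO. The log2 fold change in vitro was -1.32 (SE 0.27, adjusted p = 0.00983) by limma, and without IMZ replicate 3 the adjusted p was 0.0551. Whether the change from oocyte to zygote differed between polysomal and total RNA was tested as an interaction. It called 0 of 44 members in vivo and 0 of 36 in vitro by limma, with 8 and 5 members at an unadjusted p under 0.05, where 0.0833% and 0.272% of all genes were called. One member was called in vivo without IVO polysomal replicate 2, and 1 in vitro without IMZ polysomal replicate 4.

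Between zygotes made in vitro and in vivo, 2 members differed in total RNA among 52 tested, where 1.66% of 10824 genes were called. Eif2s1 (ENSMUSG00000021116), the gene of the eIF2 alpha subunit that the stress kinases phosphorylate, had 19.6, 17.6, 17.7 and 22.5 RPKM in IMZ, against 27.5, 23.9, 25.4 and 25.6 RPKM in IVZ. All 4 IMZ libraries were below all IVZ libraries. Its log2 fold change was -0.39 (SE 0.083, limma adjusted p = 0.0436). In oocytes it had 22.6, 29.9, 20.1 and 20.8 RPKM in IVM, 20.97, 21.6, 28.1 and 20.9 RPKM in COC, and 29.6, 19.7, 31.3 and 20.8 RPKM in IVO, so both zygote groups overlapped the oocyte range.

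Eif4g2 (ENSMUSG00000005610) encodes DAP5, a scaffold that lacks the eIF4E-binding part of eIF4G. It had 42.0, 42.1, 41.97 and 34.96 RPKM in IMZ, against 31.1, 30.8, 31.5 and 32.2 RPKM in IVZ. IMZ replicate 4 was the lowest of its group and still above all IVZ libraries. The log2 fold change was 0.34 (SE 0.07, limma adjusted p = 0.0369). In the authors' deposited table, with its p-values adjusted here over all genes (3.96% of them called), Eif4g2 had a log2 fold change of 0.34 (adjusted p = 0.00551) and Eif2s1 of -0.42 (adjusted p = 0.0428).

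Both calls lay near the threshold, and most fits that left out 1 library lost them. The log2 fold change over these fits was 0.32 to 0.41 for Eif4g2 and -0.46 to -0.35 for Eif2s1. Each was kept in 2 of 8 fits that left out 1 library, those without IMZ replicate 4 or IVZ replicate 2, with limma adjusted p up to 0.133 for Eif4g2 and 0.149 for Eif2s1. After median-of-ratios scaling the limma adjusted p was 0.0692 for Eif2s1 and 0.0331 for Eif4g2. The groups did not overlap for 10 of 52 members, 2 higher and 8 lower in IMZ, where 11.0% of all genes did not overlap. The lower ones were Eif2s1, Eif4e, Eif3e, Eif3i, Eif2s3x, Eif2b3, Eif1ax and Eif6, and the higher ones Eif4g1 and Eif4g2.

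In polysomal RNA of zygotes limma called 0 of 45 members and 0% of 6336 genes, with 1 member at an unadjusted p under 0.05. That member was Eif2s1, with 8.02, 9.06, 3.57 and 7.56 RPKM in IMZ, against 19.4, 26.5, 14.6 and 10.4 RPKM in IVZ. The groups did not overlap, and the log2 fold change was -1.20 (SE 0.41, limma adjusted p = 0.789). In the authors' deposited table the log2 fold change of Eif2s1 was -1.13 with a p-value that adjusts to 0.022, and 2.57% of all genes were called by those p-values. The authors' comparison leaves out IVZ replicate 1, so the libraries are not the same, but limma also called 0 members and 0% of genes without it. Polysomal Eif2s1 had 4.74, 7.04, 9.35 and 4.39 RPKM in COC and 5.71, 16.4, 3.704 and 4.32 RPKM in IVO, and it was not listed in IVM.

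Between oocytes the condition of maturation called no member by limma. In total RNA 0 of 53 were called for IVM against IVO, where 0.509% of 10996 genes were called, 0 of 53 for COC against IVO, where 0.00911% of 10981 were called, and 0 of 53 for IVM against COC, where 0.0448% of 11152 were called. At an unadjusted p under 0.05 there were 5, 2 and 1 members. In polysomal RNA limma called 0 of 36, 0 of 46 and 0 of 36 members and 0% of all genes in the same 3 comparisons, with 0, 1 and 3 members at an unadjusted p under 0.05. The p-values of the authors' deposited tables, adjusted over all genes, called 0 members in these 6 comparisons. By those p-values 0.946%, 0.255% and 0.305% of all genes were called in total RNA, and 0.236%, 0.332% and 0% in polysomal RNA, in the same order. Within a fraction the 3 comparisons share libraries.

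Eif4g1 had the smallest p of the members for IVM against IVO, with 36.8 ± 2.05 RPKM in IVM and 29.7 ± 3.52 RPKM in IVO (SD, n = 4 each) and a log2 fold change of 0.31 (SE 0.091, limma adjusted p = 0.24). For IVM against COC, which averaged 30.95 ± 3.14 RPKM (SD, n = 4), its log2 fold change was 0.25 (SE 0.081, limma adjusted p = 0.567). Neither difference passed.

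Polysomal and total RNA differed for many members within each kind of cell. Both values are relative abundances within a fraction, so a gene higher in polysomal RNA takes a larger share of that fraction's reads than of the total RNA reads. Among 45 members in IMZ, 9 were higher and 23 lower in polysomal RNA, where 61.1% of all genes were called. Among 45 in IVZ, 6 were higher and 15 lower, where 41.0% were called. In IVM 6 of 36 were higher and 17 lower (53.9% of all genes called), in COC 10 of 46 were higher and 23 lower (67.8%), and in IVO 5 of 46 were higher and 22 lower (59.1%).

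The balance between higher and lower depends on the scaling, because the median log2 fold change of all genes was -0.51 in IMZ, -0.38 in IVZ, -0.5 in IVM, -0.40 in COC and -0.55 in IVO. The members' own medians were -0.48, -0.58, -0.79, -0.47 and -0.5 in the same order. After median-of-ratios scaling the members split into 16 higher and 14 lower in IMZ, 10 and 7 in IVZ, 9 and 8 in IVM, 14 and 18 in COC, and 14 and 14 in IVO, where 52.4%, 34.6%, 41.6%, 62.2% and 48.9% of all genes were called. Among 36 members tested in all 5 kinds of cell, 12 were lower in all 5 (33.3%, against 27.0% of 4377 genes) and 2 were higher in all 5 (5.56%, against 6.81%).

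Eif3k and Eif1b were called higher in polysomal RNA in all 5 kinds of cell, Eif3k in every fit that left out 1 library and Eif1b in IVM in 1 of 8 such fits. The log2 fold change of Eif3k was 1.5 (SE 0.21, adjusted p = 0.00012) in IMZ, 1.27 (SE 0.32, adjusted p = 0.0112) in IVZ, 1.91 (SE 0.31, adjusted p = 0.00132) in IVM, 1.39 (SE 0.19, adjusted p = 9.45e-05) in COC and 1.82 (SE 0.18, adjusted p = 4.17e-05) in IVO by limma. Relative to the median of all genes it was 2.01, 1.65, 2.41, 1.79 and 2.38. Comparing the polysomal with the total RNA values of Eif3k given above, no polysomal library of a group overlapped its total RNA libraries. Of all genes, 45.6% to 63.3% did not overlap between the fractions within a kind of cell, in either direction.

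Eif1b (ENSMUSG00000006941), a close relative of the start-codon scanning gene Eif1, had 397, 380.5, 201 and 308 RPKM in polysomal and 176, 163, 157 and 174 RPKM in total RNA of IMZ. In IVZ it had 451, 336, 422 and 345 RPKM in polysomal and 178, 187, 166 and 152 RPKM in total RNA. In IVM it had 157, 305, 365 and 227 RPKM in polysomal and 159, 159, 157 and 161 RPKM in total RNA, with polysomal replicate 1, which the authors excluded, at the level of total RNA. The COC libraries held 435, 467, 423 and 396 RPKM in polysomal and 157, 153, 172 and 156 RPKM in total RNA, and the IVO libraries 321, 357, 188 and 319 RPKM in polysomal and 168, 149.6, 166 and 146 RPKM in total RNA. Apart from IVM, every polysomal library lay above every total RNA library of its group. The log2 fold changes ran from 0.65 (SE 0.25, adjusted p = 0.0499) in IVM to 1.43 (SE 0.11, adjusted p = 4.42e-06) in COC by limma. The call in IVM was kept without polysomal replicate 1 and lost without any other library, with log2 fold changes of 0.48 to 0.88 and limma adjusted p up to 0.117.

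Eif6 was higher in polysomal RNA in 4 kinds of cell, with log2 fold changes of 1.31 in IMZ, 1.25 in IVM, 1.28 in COC and 0.88 in IVO, and the value in IVZ was 0.68 (limma adjusted p = 0.129). The call of Eif6 in IVO was kept in 2 of 8 fits, those without polysomal replicate 2 or total RNA replicate 3, with log2 fold changes of 0.61 to 1.17 and limma adjusted p up to 0.0629. Eif2b2 was higher in the same 4, and its value in IVZ was -0.33 (limma adjusted p = 0.742). In IVZ it had 0.594, 12.9, 17.2 and 24.4 RPKM in polysomal and 10.1, 13.3, 12.7 and 10.5 RPKM in total RNA. Polysomal replicate 1, which the authors excluded, was far below the others, on about 4 reads. Eif3g and Eif2b4 were called higher in IMZ, IVZ and COC, Eif3f in IMZ and IVM, and Eif3h in IVZ and COC. In IVM the call of Eif3f was kept in 2 of 8 fits, those without polysomal replicate 1 or 2, with log2 fold changes of 0.74 to 1.58 and limma adjusted p up to 0.0914. In IVM polysomal RNA, replicate 1 held 76.1 RPKM of Eif3f, far above the other 3. The call of Eif3h in IVZ was kept in 5 of 8 fits and lost without total RNA replicate 1, 3 or 4, with limma adjusted p up to 0.0686. Eif4e1b was called in COC (0.90, SE 0.13, limma adjusted p = 0.000187). Its values of -0.01 in IMZ, 0.34 in IVZ, 0.40 in IVM and 0.58 in IVO did not pass, and the difference of COC from these 4 was not tested.

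The genes lower in polysomal RNA in all 5 kinds of cell were Eif5b, Eif5, Eif4e3, Eif4g1, Eif4g2, Eif4a2, Eif4b, Eif4enif1, Eif2s2, Eif2b1, Eif2ak1 and Eif3c. Of these, 11 lay below the median of all genes in every kind of cell, and Eif3c lay above it by 0.05 in IMZ. The calls of 7 of the 12 (Eif5b, Eif5, Eif4e3, Eif4g2, Eif4a2, Eif4b and Eif2s2) held in all 5 kinds of cell in every fit that left out 1 library. The other 5 lost a call without 1 library. Eif4enif1 and Eif2ak1 in IVZ were kept in 4 of 8 fits each, lost without any 1 of the 4 total RNA libraries, and Eif4g1 in IVZ in 5 of 8, lost without total RNA replicate 1, 3 or 4. Eif2ak1 in IVM was lost without total RNA replicate 1 or 2 or polysomal replicate 3, and Eif3c in IMZ without total RNA replicate 1, 3 or 4. Eif2b1 was kept in 3 of 8 fits in IVZ, lost without any 1 total RNA library or polysomal replicate 2, and in 1 of 8 in IVO (the fit without polysomal replicate 2). Over these losses limma's adjusted p reached 0.126. Eif5b (ENSMUSG00000026083) had the largest differences in IMZ, IVM, COC and IVO. In polysomal RNA it had 6.401, 6.48, 10.02 and 15.9 RPKM in IMZ, 26.8, 12.7, 11.4 and 17.7 RPKM in IVZ, 17.6, 4.06, 13.8 and 28.9 RPKM in IVM, 19.2, 6.001, 13.8 and 11.8 RPKM in COC, and 4.16, 3.87, 6.64 and 25.1 RPKM in IVO. The 20 total RNA libraries held 57.4 to 118 RPKM, above every polysomal library. The log2 fold change was -2.85 (SE 0.26, adjusted p = 1.57e-05) in IMZ, -2.13 (SE 0.28, adjusted p = 0.000781) in IVZ, -2.42 (SE 0.49, adjusted p = 0.00353) in IVM, -2.53 (SE 0.28, adjusted p = 2.68e-05) in COC and -3.5 (SE 0.46, adjusted p = 0.000116) in IVO by limma. Of its exonic bases 16.8% overlap the gene Rev1 on the opposite strand.

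Eif3a was lower in the 4 kinds of cell that list it in polysomal RNA, with log2 fold changes of -2.08 in IMZ, -2.22 in IVZ, -2.24 in COC and -2.46 in IVO. Eif2ak4 was lower in the same 4, with -1.61, -1.96, -2.20 and -2.15. Eif3j2, tested in zygotes, had -2.81 (SE 0.35, adjusted p = 6.31e-05) in IMZ and -2.46 (SE 0.3, adjusted p = 0.000644) in IVZ by limma. Of the scaffold genes, Eif4g1 and Eif4g2 were called lower in all 5 kinds of cell and Eif4g3 in 4. Eif4e was called lower in 4, with -0.86 in IMZ, -0.81 in IVM, -1.04 in COC and -0.80 in IVO, and its value in IVZ was -0.62 (limma adjusted p = 0.0693). The call of Eif4e in IVO was lost without replicate 3 or 4 of either fraction, with limma adjusted p up to 0.0591.

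Within eIF3 some subunit genes were called higher and others lower, where 41.0% to 67.8% of all genes were called in either direction. Eif3k was called higher in every kind of cell, and Eif3g, Eif3f, Eif3h and Eif3l were called higher in 1 to 3 and lower in none. Eif3a, Eif3c, Eif3b and Eif3e were called lower in 3 to 5 and higher in none. Eif3j2 was called lower in both kinds of cell that list it, Eif3d was called lower in IVO, Eif3m was called higher in IMZ and lower in COC, and Eif3i passed in none. The calls of Eif3d in IVO and Eif3m in COC were kept in 2 of 8 and 1 of 8 fits that left out 1 library, that of Eif3d without polysomal or total RNA replicate 2 and that of Eif3m without polysomal replicate 1, with limma adjusted p up to 0.128 and 0.135. Eif3b in IVM was lost without any 1 of the 4 total RNA libraries (adjusted p up to 0.0614 by limma). It spread from 2.60 to 26.1 RPKM in polysomal and from 40.0 to 48.7 RPKM in total RNA of IVM. The fit pools the variance of both fractions, so such a loss does not show that the difference rests on the library left out. Relative to the median of all genes, Eif3d lay above it in 4 of 5 kinds of cell.

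**Figure D4:**
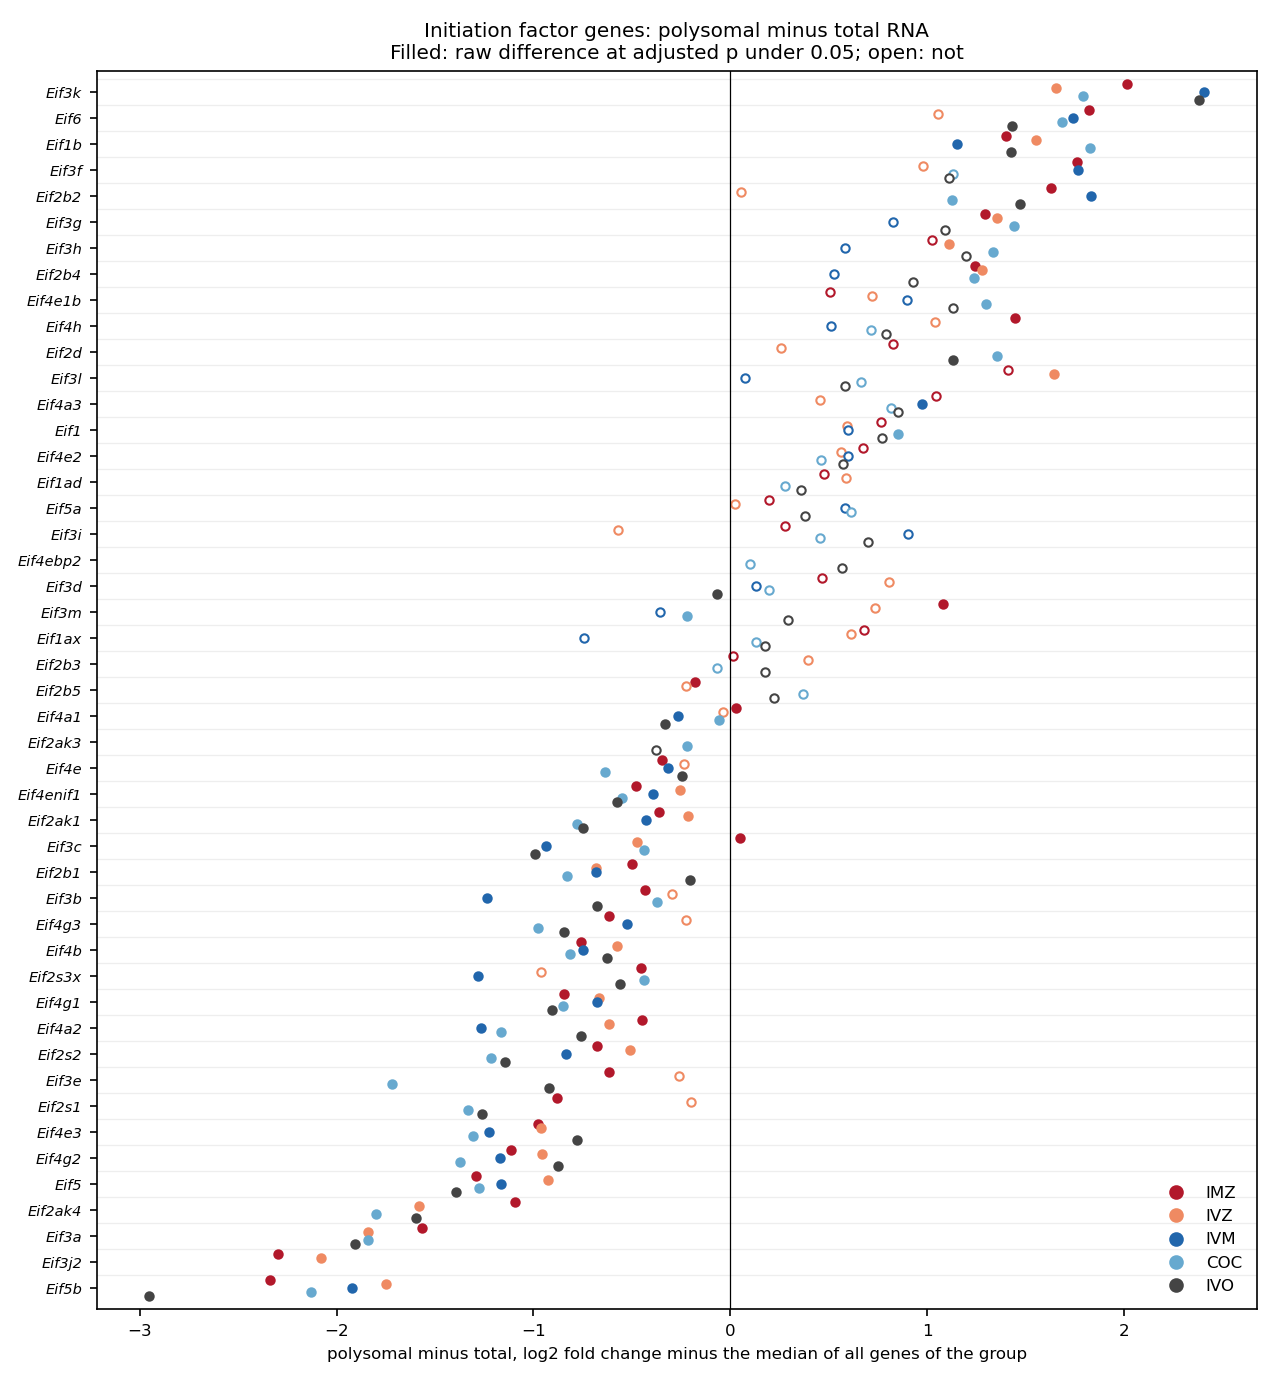
Polysomal minus total RNA of the members in the 5 kinds of cell, as log2 fold change minus the median of all genes of that kind of cell, ordered by the mean. Filled points mark a limma adjusted p under 0.05 for the raw difference. Eif3k, Eif6 and Eif1b are at the enriched end, and Eif5b, Eif3j2, Eif3a and Eif2ak4 at the depleted end.

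Exonic length moved with this difference. Spearman correlations between the log2 fold change and the exonic length in GENCODE M21 were -0.54 over 45 members in IMZ, -0.46 over 45 in IVZ, -0.55 over 36 in IVM, -0.64 over 46 in COC and -0.65 over 46 in IVO. Over all genes they were -0.41 in IVM to -0.44 in IVZ. Genes share their libraries, so these are descriptions. Eif3k with 2698 exonic bases and Eif4e3 with 2515 lay on opposite sides of the median of all genes. Of the exonic bases of Eif4e3, 14.8% are shared with the gene Gm20696 on the same strand. Eif1b with 1125 bases lay toward the enriched end and Eif5b with 9753 toward the depleted end, as in the trend. Of the eIF3 genes, those called only higher had 1612 (Eif3h), 1984 (Eif3g), 2698 (Eif3k), 2891 (Eif3f) and 3639 (Eif3l) exonic bases. Those called only lower had 2379 (Eif3j2), 3346 (Eif3b), 3511 (Eif3c), 4968 (Eif3d), 6719 (Eif3e) and 8731 (Eif3a). Why length went with these differences was not tested. The calls with the trend on length removed follow.

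With the trend on length removed, 29 members were called in IMZ (5 higher, 24 lower, where 50.4% of all genes were called), 15 in IVZ (4 and 11, 29.4% of all genes), 17 in IVM (2 and 15, 40.7% of all genes), 28 in COC (6 and 22, 57.6% of all genes) and 22 in IVO (2 and 20, 48.8% of all genes). Eif3k was still called higher in all 5, with 1.15 in IMZ, 0.95 in IVZ, 1.56 in IVM, 1.01 in COC and 1.48 in IVO. Eif1b was then called in COC (0.36, limma adjusted p = 0.00879) and in none of the other 4, and its sign turned in IMZ, IVM and IVO.

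**Figure D5:**
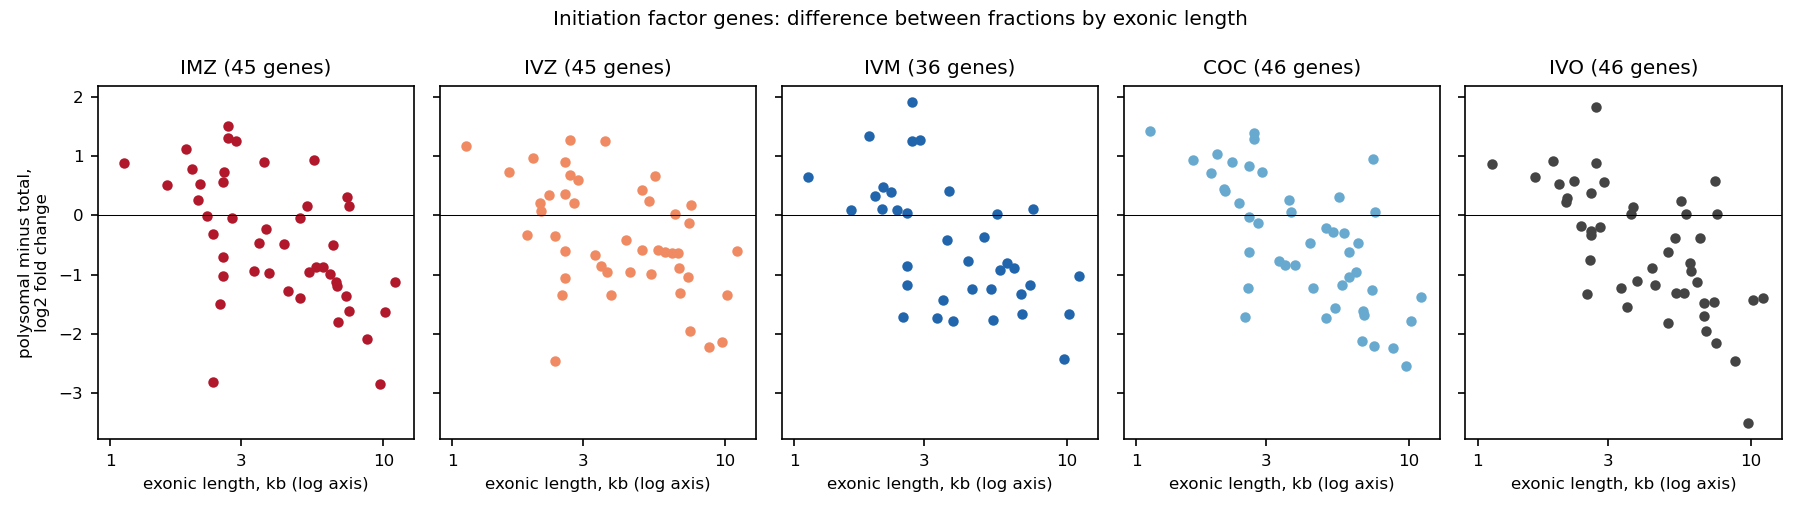
Polysomal minus total log2 fold change of the members against exonic length (log axis, kb) in IMZ, IVZ, IVM, COC and IVO, 1 point per gene. Longer genes lie lower in each panel, with Spearman correlations from -0.46 in IVZ to -0.65 in IVO.

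Without the libraries that the authors excluded, 27 of 45 members were called in IVZ (11 higher, 16 lower) and 26 of 36 in IVM (8 higher, 18 lower), where 50.7% and 71.6% of all genes were called. Reads behind some polysomal values were few. IVZ replicate 1 held about 2 reads for Eif3f and for Eif2b5, against medians, over the polysomal libraries that list the gene, of 613 for Eif3f and 190 for Eif2b5.

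A list of 43 further translation genes, chosen with results of these data known, gives the rest of the pathway. In total RNA 2 were higher and 7 lower in IVZ than in IVO, and 6 were higher and 17 lower in IMZ than in IVM and COC. The list's share called was 20.9% in vivo and 53.5% in vitro, against 16.2% and 43.1% of all genes. Mknk1, which encodes a kinase that phosphorylates eIF4E, had a log2 fold change of -0.81 (SE 0.086, adjusted p = 0.000116) in vivo and -0.96 (SE 0.064, adjusted p = 7.62e-08) in vitro by limma. Dohh, whose enzyme completes the hypusine of eIF5A, had -0.65 (SE 0.096, adjusted p = 0.000981) in vivo and -0.78 (SE 0.057, adjusted p = 1.68e-07) in vitro. Ppp1r15b, whose protein directs dephosphorylation of the eIF2 alpha subunit, had -1.05 (SE 0.15, adjusted p = 0.000858) in vivo.

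Ppp1r15a, the stress-induced partner of Ppp1r15b, was the 1 gene of the list called between the zygote groups in total RNA. It averaged 22.2 ± 3.67 RPKM in IMZ, against 40.8 ± 1.54 RPKM in IVZ (SD, n = 4 each), with a log2 fold change of -0.86 (SE 0.097, adjusted p = 0.0048) by limma. In oocytes it averaged 53.5 ± 0.739 RPKM in IVM, 56.7 ± 2.38 RPKM in COC and 52.8 ± 0.969 RPKM in IVO (SD, n = 4 each), and the log2 fold change from oocyte to zygote in vitro was -1.29 (SE 0.076, adjusted p = 2.44e-08) by limma. None of the list was called between oocyte groups in either fraction, or in the stage comparisons of polysomal RNA. Between polysomal and total RNA 5 of 34 genes of the list were higher and 18 lower in IMZ, 4 and 9 of 34 in IVZ, 2 and 14 of 27 in IVM, 9 and 21 of 38 in COC, and 5 and 18 of 39 in IVO. These are 67.6%, 38.2%, 59.3%, 78.9% and 58.97% of the list, against 61.1%, 41.0%, 53.9%, 67.8% and 59.1% of all genes. Gigyf2, whose protein represses translation with that of Eif4e2, had log2 fold changes of -1.83 in IMZ, -1.92 in IVZ, -1.77 in COC and -2.40 in IVO.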

How the data were processed

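RNA abundance was measured in 40 libraries of mouse oocytes and zygotes, 4 per group, made with a stranded total RNA kit per the labels' protocols. DRAGEN and GRCm39 are named in the submitters' processing notes, with no version of DRAGEN, and for the counting method and its strand setting the sources used here give nothing. The authors deposited 8 tables of RPKM values with, per the file headers, a log2 fold change and a p-value for each of their comparisons, and they excluded 2 polysomal libraries after principal component analysis. No table holds counts, so no count test was used.

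Groups came from the sample titles. Log2(RPKM + 1) values of all genes listed for the groups compared were fitted with limma 3.58.1 in R 4.3.3 with a variance trend, for 19 comparisons (8 of conditions, 5 of polysomal with total RNA, 4 of stages and 2 interactions), and p-values were adjusted by Benjamini-Hochberg over all genes. Each fit pooled the variance of a gene over the groups compared, though polysomal libraries spread more widely than total RNA libraries. The procedure was tested on simulated data. Depth was recovered from RPKM steps and GENCODE M21 exonic lengths, which are of another genome build than GRCm39. The members and lists were chosen with earlier results of these data known. Test statistics are given for members called, at most the 6 with the smallest p in each direction of a comparison, and values for further members were chosen after they were seen. Alternatives were another pseudocount (0.1), a minimum mean of 1 RPKM, median-of-ratios scaling, a replicate block, leaving out each library or those the authors excluded, and removal of the trend on exonic length.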

Additional observations from a re-analysis of the deposited data

Results flagged for a closer look

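Of 481 groups of 4 libraries, 1 for each member and listed group, 42 (8.73%) held a library whose gap to the nearest of the other 3 took a larger part of the group's range than Dixon's 95% critical value for 4 samples. Chance gives about 1 in 20. They fell on 32 genes and 19 libraries, and the values are grouped here by library, each with the range of the other 3 libraries where the library holds several members. No explanation was tested.

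IVM replicate 2 in total RNA stood out as the highest library of its group with Eif3c at 91.8 RPKM (others 61.9 to 66.3), Eif3d at 74.4 RPKM (others 56.3 to 58.3), Eif3j1 at 5.16 RPKM (others 2.65 to 2.99), Eif2ak4 at 24.98 RPKM (others 17.9 to 19.1), Eif1 at 108 RPKM (others 63.6 to 70.2) and Eif5a2 at 0.546 RPKM (others 0.404 to 0.427). IVO replicate 2 in polysomal RNA stood out as the highest library of its group with Eif3l at 61.2 RPKM (others 21.5 to 28.1), Eif2s1 at 16.4 RPKM (others 3.70 to 5.71), Eif2s2 at 62.0 RPKM (others 33.1 to 35.9), Eif2b1 at 57.1 RPKM (others 19.9 to 26.2) and Eif2b3 at 15.8 RPKM (others 3.56 to 5.60). IMZ replicate 4 in total RNA stood out as the highest library of its group with Eif3i at 47.9 RPKM (others 44.7 to 45.1), Eif2s3x at 20.5 RPKM (others 18.0 to 18.3) and Eif2b4 at 42.4 RPKM (others 36.3 to 37.0), and as the lowest library of its group with Eif4g2 at 35.0 RPKM (others 42.0 to 42.1). COC replicate 3 in total RNA stood out as the highest library of its group with Eif3a at 35.7 RPKM (others 28.0 to 28.7), Eif3e at 67.1 RPKM (others 45.2 to 46.5) and Eif2s1 at 28.1 RPKM (others 20.9 to 21.6). IVM replicate 1 in polysomal RNA stood out as the highest library of its group with Eif3f at 76.1 RPKM (others 12.6 to 19.6), Eif2s2 at 99.0 RPKM (others 35.4 to 40.5) and Eif2ak1 at 44.6 RPKM (others 18.8 to 21.4). COC replicate 1 in polysomal RNA stood out as the lowest library of its group with Eif2b4 at 42.1 RPKM (others 99.8 to 103) and Eif1ad at 1.5 RPKM (others 12.03 to 13.7). COC replicate 3 in polysomal RNA stood out as the highest library of its group with Eif4a2 at 12.7 RPKM (others 5.79 to 6.76) and Eif2ak3 at 5.10 RPKM (others 2.68 to 2.81). IMZ replicate 2 in total RNA stood out as the lowest library of its group with Eif4ebp1 at 0.248 RPKM (others 0.394 to 0.423) and Eif2b3 at 7.34 RPKM (others 8.23 to 8.30). IVO replicate 4 in polysomal RNA stood out as the highest library of its group with Eif2ak3 at 7.02 RPKM (others 1.04 to 1.72) and Eif5b at 25.1 RPKM (others 3.87 to 6.64). IVZ replicate 1 in polysomal RNA stood out as the lowest library of its group with Eif2d at 1.40 RPKM (others 7.58 to 8.49) and Eif2b3 at 5.61 RPKM (others 10.3 to 11.2). IVZ replicate 2 in polysomal RNA stood out as the highest library of its group with Eif4b at 88.7 RPKM (others 45.9 to 52.3) and Eif3j2 at 7.85 RPKM (others 2.46 to 3.34). IVZ replicate 2 in total RNA stood out as the highest library of its group with Eif4b at 122 RPKM (others 107 to 109.6), and as the lowest library of its group with Eif2ak2 at 0.537 RPKM (others 0.701 to 0.717).

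COC replicate 2 in polysomal RNA stood out as the lowest library of its group with Eif4e at 9.27 RPKM. IMZ replicate 1 in polysomal RNA stood out as the lowest library of its group with Eif2s3x at 5.94 RPKM. IMZ replicate 2 in polysomal RNA stood out as the highest library of its group with Eif1ax at 32.7 RPKM. IVM replicate 3 in polysomal RNA stood out as the highest library of its group with Eif4a3 at 121 RPKM. IVO replicate 3 in total RNA stood out as the highest library of its group with Eif2b3 at 9.30 RPKM. IVZ replicate 3 in polysomal RNA stood out as the highest library of its group with Eif4a2 at 17.4 RPKM. IVZ replicate 4 in polysomal RNA stood out as the lowest library of its group with Eif4e1b at 324 RPKM.

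The 6 members that set IVM replicate 2 apart in total RNA were all high there, and it is the library with the highest value of its group for 31 of 52 members. IVM replicate 1 and IVZ replicate 1 of polysomal RNA are the libraries that the authors excluded.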

How the results depend on the processing

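The counts of members called stayed within 1.5 times of the reported ones for 261 combinations of a comparison and another setting, and not for 17. Exceptions that leave out no single library were the zygote comparison of total RNA (IMZ against IVZ, 2 members), with 1 member after median-of-ratios scaling and 0 with a replicate block (limma adjusted p 0.0655 for Eif2s1 and 0.089 for Eif4g2). Leaving out 1 library gave 0 to 2 members there, 0 to 1 for IVZ against IVO in polysomal RNA, 1 to 3 for IMZ against IVM and COC in polysomal RNA (1 without IMZ replicate 3), and 0 to 1 for each interaction. It gave 11 to 14 and 19 to 27 members for the stage comparisons of total RNA in vivo and in vitro. For polysomal against total RNA it gave 30 to 34 members in IMZ, 16 to 27 in IVZ, 17 to 26 in IVM, 31 to 36 in COC and 23 to 34 in IVO. Equal replicate numbers were not taken as pairs, since in none of 15 comparisons did all 4 pairs correlate above 0.1. In 3 of the 15, each with IVO, 3 of 4 pairs did, and the labels do not say whether a number marks a shared batch. With a replicate block 17 members were called for IVZ against IVO and 21 for IMZ against IVM and COC in total RNA, and 32, 20, 21, 33 and 25 for polysomal against total RNA in IMZ, IVZ, IVM, COC and IVO. With the trend on length removed, 5 polysomal differences turned their sign, to -0.32 for Eif1b in IMZ, -0.029 for Eif3h in IVZ, -0.12 for Eif4a3 and -0.53 for Eif1b in IVM, and -0.24 for Eif1b in IVO. The same removal, added for the stage comparisons after the data were seen, called 15 members in vivo and 28 in vitro. The cause was not tested. The counts of this section stand without the share of all genes called in the same fit. They show how far the reported counts moved and do not set the members against all genes. In the main fits of total RNA, 16.2% of all genes were called for the stage comparison in vivo and 43.1% in vitro. For polysomal against total RNA the main fits called 41.0% to 67.8%. Polysomal depth, from 3.16 M reads, limits what the polysomal comparisons can show.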
